A study of Mus musculus with 2 samples.

Results

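The genes described here are 34 genes of the lysosome that fall into 4 groups by the place and job of their proteins: 6 lysosomal membrane proteins, 14 proteins of the lysosomal lumen, which are mostly hydrolases and their partners, 4 subunits of the membrane-embedded V0 part of the V-ATPase proton pump, and 10 subunits of its catalytic V1 part or accessory proteins. They were chosen by name, as known lysosomal genes, and make up 34 of the 55450 genes in the deposited count tables. Their values come from single-cell RNA-seq of mouse brain cells sorted by flow cytometry as CD11b high and CD45 low, the surface profile used for microglia, taken on day 3 of microglial repopulation. Hk2 fl/fl mice, which carry floxed alleles of the glycolytic enzyme hexokinase 2, gave 1 library, and Hk2 cKO mice, which carry the same floxed alleles together with Cx3cr1CreER, gave the other. Both were of the C57BL/6 strain. The Cre recombinase is driven from the Cx3cr1 locus, which is active in microglia and also in some blood monocytes, and recombination was induced with 100 µg of tamoxifen a day over 2 days, postnatal days 1 to 2 or otherwise as the study indicated. Whether the fl/fl mice also received tamoxifen, how microglia were depleted, the age at sorting, the number of animals per library and the deleted exons are not given in the sources used here.

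Lysosomes break down what a cell engulfs or recycles. Their lumen is kept acidic by the V-ATPase, which uses ATP hydrolysis in its V1 part to drive protons through its V0 part, and most lysosomal hydrolases work only at that acid pH. Microglia, the resident macrophages of the brain, are rich in lysosomes because they clear debris and dying cells. Inherited loss of many of the lumen proteins causes lysosomal storage disease of the brain, and loss of progranulin, the product of Grn, causes neuronal ceroid lipofuscinosis and, in carriers of 1 lost copy, frontotemporal dementia.

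Many lysosomal genes are known targets of TFEB, TFE3 and MITF, transcription factors that bind E-box sequences near the start of transcription. Promoters from RefSeq (build GRCm38.p6, 250 bases before to 50 bases after an annotated start) were at hand for 28 of the 34 genes, 32 promoters in all. The E-box TCACGTG was searched on both strands, so that the palindrome of this core with 1 more base, present in some promoters, gave a match on each strand. It lay in 9 of the 32 promoters (28.1%), against 3.77% of all 32851 promoters in the table. The M-box TCATGTGA, a related site of the same factor family that does not overlap the E-box, lay in 4 of the 32 (12.5%), those of Atp6v0c, Grn, Ppt1 and Tpp1, against 0.986% of all promoters. One or the other lay in 13 of the 32 (40.6%), against 4.7% of all. Both motifs were chosen with the data known, and a match is a run of letters, not evidence of binding. Neu1, Scarb2, Npc2, Atp6ap2 and Man2b1, which also figure in the results below, were among the genes with neither motif. The 250 bases before the start are shown for 4 of the genes with a motif, 5′ to 3′ on the gene's strand, with the E-box or M-box in capitals. They are Lamp1 (chr8:13158911-13159160, plus strand), which has 4 E-boxes, Lgmn (chr12:102439093-102439342, minus strand, 1 of its 2 promoters), which has 1 E-box, and Grn (chr11:102430257-102430506, plus strand) and Atp6v0c (chr17:24169451-24169700, minus strand, 1 of its 3 promoters), which have 1 M-box each.
Lamp1: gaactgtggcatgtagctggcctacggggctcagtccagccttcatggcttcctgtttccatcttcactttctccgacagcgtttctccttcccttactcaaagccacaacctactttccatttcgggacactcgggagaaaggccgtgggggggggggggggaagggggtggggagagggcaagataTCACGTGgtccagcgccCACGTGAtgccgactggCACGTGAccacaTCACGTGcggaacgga
Lgmn: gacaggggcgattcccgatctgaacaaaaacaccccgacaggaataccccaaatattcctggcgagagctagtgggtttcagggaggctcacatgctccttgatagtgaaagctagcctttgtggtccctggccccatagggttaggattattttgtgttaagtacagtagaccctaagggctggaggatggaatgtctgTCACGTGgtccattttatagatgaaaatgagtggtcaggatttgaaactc
Grn: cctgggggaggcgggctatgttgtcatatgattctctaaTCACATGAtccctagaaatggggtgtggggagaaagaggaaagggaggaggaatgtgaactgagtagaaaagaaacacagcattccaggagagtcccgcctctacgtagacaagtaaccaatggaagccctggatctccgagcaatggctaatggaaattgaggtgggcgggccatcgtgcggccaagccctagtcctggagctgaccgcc
Atp6v0c: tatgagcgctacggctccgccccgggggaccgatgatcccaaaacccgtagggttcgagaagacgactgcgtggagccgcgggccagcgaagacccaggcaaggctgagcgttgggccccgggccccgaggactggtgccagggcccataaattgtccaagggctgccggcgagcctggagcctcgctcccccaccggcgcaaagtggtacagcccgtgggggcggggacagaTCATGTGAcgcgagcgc

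Counts of unique molecular identifiers (UMIs), each standing for 1 captured RNA molecule, came to 37476201 over 3089 barcodes for fl/fl and 32896996 over 2607 barcodes for cKO. After filtering, 2824 and 2300 cells remained. Cells were clustered without the 34 genes or other lysosomal genes, so that a level by cluster is not what made the cluster, and 8 of 16 clusters were called microglia-like from 16 markers such as P2ry12 and Tmem119. They held 2445 of the fl/fl cells (86.6%) and 1996 of the cKO cells (86.8%), with medians of 10148 and 11983 UMIs per cell. Summed over microglia-like cells, the 16 markers took 32390 CPM in the fl/fl library and 34970 CPM in the cKO library and none was at 0, where CPM is UMIs per 1000000 UMIs. The remaining clusters carried markers of neutrophils, osteoclasts, monocytes, endothelial cells or choroid plexus, or stayed unnamed. The neutrophil gene S100a8 had at least 1 UMI in 15.3% of the microglia-like cells of fl/fl and 13.8% of those of cKO, and the libraries shared 2 barcode sequences. Hk2, the targeted gene (chr6:82725025-82774454), stood at 166 CPM in fl/fl and 43.6 in cKO microglia-like cells, a log2 ratio of -1.91 (95% interval -2.02 to -1.84). With 1 library per genotype there is no replicate spread and no test was possible. The 95% intervals given here are exact Poisson intervals of the UMIs, or exact binomial intervals of a ratio, and cover counting error only.

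The 34 genes together took 1.59% of the UMIs of microglia-like cells in fl/fl and 1.65% in cKO, or 210 and 233 UMIs per cell. The assay tags the 3′ end of each transcript and CPM was not divided by transcript length, so levels of different genes are set side by side here as captured molecules only. How well transcripts of different lengths were captured was not tested. Lgmn (chr12:102394084-102439813, minus strand, GENCODE M21), which encodes the asparaginyl endopeptidase legumain that also matures several cathepsins, was the most abundant of the 34 in both libraries at 3350 CPM in fl/fl and 3375 in cKO. Psap (chr10:60277627-60302597), the precursor of the saposins that present lipids to hydrolases, came next at 2390 and 2358 CPM. Below them came Grn (chr11:102430315-102437048) and Atp6v0c (chr17:24163866-24169702, minus strand), the proteolipid subunit that forms the rotor ring of V0, the latter at 1136 and 1196 CPM. No gene differed by more than 1 rank between the libraries.

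The lower end of the range held enzymes and channels. Gaa, the glycogen-degrading acid alpha-glucosidase, was at 43.1 and 44.4 CPM, and Atp6v1h, a regulatory subunit of V1, at 43.1 and 38.8 CPM. Mcoln1, the lysosomal calcium channel TRPML1, was at 8.85 and 9.43 CPM and was the 1 gene of the 34 below the mean of 10 CPM asked for here, so counts below are out of 33 measured genes. Ppt1 overlaps Cap1 on the opposite strand, which had 5841 and 5883 UMIs, Npc1 overlaps Rmc1 and Gm15956, and Glb1 shares exonic bases on its own strand with Tmppe. The sources used here do not say how the counting treated reads in these overlaps.

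**Figure D1:**
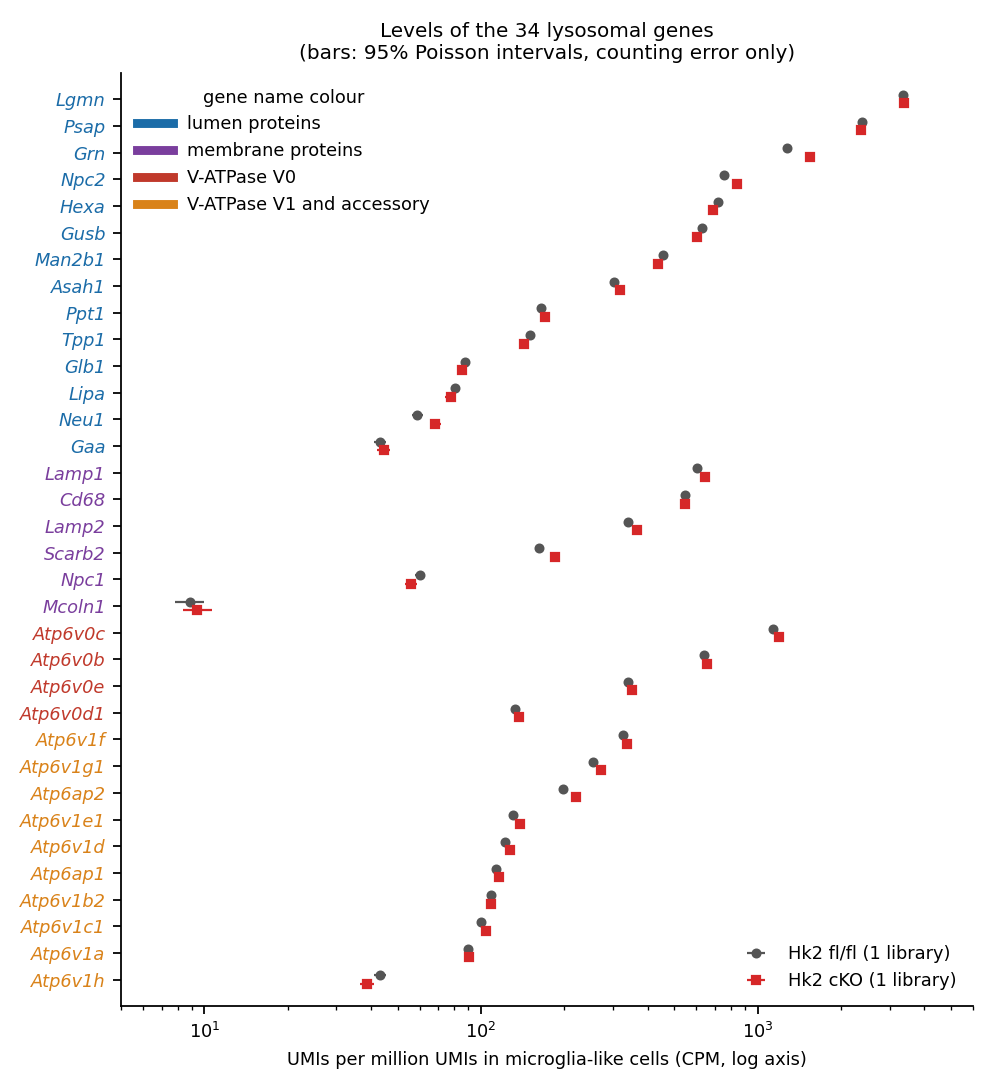
Levels of the 34 genes in microglia-like cells, in CPM on a log axis, as grey circles for the fl/fl library and red squares for the cKO library, with 95% Poisson intervals. Lgmn stands highest at 3350 and 3375 CPM and Mcoln1 lowest at 8.85 and 9.43 CPM.

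V-ATPase subunits were not present at 1 common level. Within V0, Atp6v0c stood at 1136 CPM in fl/fl, Atp6v0b at 642, Atp6v0e at 341 and Atp6v0d1, the single central stalk subunit, at 133. Within V1, the short subunit Atp6v1f stood at 327 CPM and Atp6v1g1 at 254, while Atp6v1a and Atp6v1b2, the subunits that bind and hydrolyse ATP, stood at 89.8 and 108 CPM. The cKO library had the same order within V0, with 1196, 654, 352 and 137 CPM. Counting intervals of neighbours in this order did not overlap within V0 in either library.

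Between genotypes, 23 of the 33 measured genes were higher in the cKO library and 10 lower, where 38.9% of all 7813 measured genes were higher. The differences were small. Grn, Neu1, Scarb2, Npc2 and Atp6ap2 were at least 1.1-fold higher, 5 of 33 against 11.6% of all genes, and Atp6v1h was at least 1.1-fold lower, 1 of 33 against 20% of all genes. That last count was 0 in 8 of 18 other settings. Over all microglia-like cells no gene of the 33 was 25% higher in either library than in the other, where 3.3% of all genes were that much higher in cKO and 2.42% in fl/fl. The interval of the ratio lay above 0 for 13 of the 33 (15.2% of all genes) and below 0 for 7 (25.6%). The median log2 ratio of cKO over fl/fl was 0.04 for the 33 genes and -0.04 for all measured genes, with 1 CPM added to both values. With cells thinned to 5000 UMIs each, the median of the 33 was 0.01 and 2 genes, Grn and Scarb2, were at least 1.1-fold higher.

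Grn had the highest ratio of the 33. It stood at 1280 CPM (interval 1267 to 1292) in fl/fl and at 1546 CPM (1531 to 1560) in cKO, a log2 ratio of 0.27 (0.25 to 0.29). The intervals of the libraries did not overlap, and 4.3% of all measured genes had a higher ratio. Grn encodes progranulin, a secreted and lysosomal glycoprotein cut into granulins. In 7 of the 8 microglia-like clusters Grn was higher in cKO, by log2 ratios of 0.13 to 0.44, and it stood at 1115 CPM in fl/fl and 1088 in cKO in cluster 1.

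Neu1 (chr17:34931253-34935953), a sialidase that trims sialic acids from glycoproteins, stood at 58.8 CPM (56.2 to 61.5) in fl/fl and 68.4 CPM (65.4 to 71.5) in cKO, a log2 ratio of 0.21. The ratio shrank to 0.07 in thinned cells. Scarb2 (chr5:92441314-92506833, minus strand), the membrane protein LIMP-2 that carries glucocerebrosidase to the lysosome, stood at 162 CPM (158 to 167) and 185 CPM (180 to 190), a log2 ratio of 0.18. Only Scarb2 among the 33 had its cKO level above its fl/fl level in all 8 microglia-like clusters. This 1 of 33 was no larger a share than the 3.03% of all genes for which the same held. Across these clusters the log2 ratios of Scarb2 ran from 0.08 to 0.59. None of the 33 was lower in cKO in all 8, as 3.62% of all genes were. Npc2 (chr12:84754562-84773152, minus strand), the soluble cholesterol-binding protein of the lumen, stood at 757 CPM (747 to 766) and 844 CPM (833 to 854), a log2 ratio of 0.16. Its partner in cholesterol export, the membrane protein Npc1, was at 60.2 CPM in fl/fl and 55.9 in cKO, a log2 ratio of -0.11 (-0.20 to -0.01). Over all microglia-like cells the partners thus lay on opposite sides of 0. The ratio of Npc1 turned on the fl/fl cells used, as given below for cells split by mt-Nd3 and Gm28438.

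Atp6ap2 (chrX:12587801-12617049), the V-ATPase accessory protein also called the prorenin receptor, stood at 198 CPM (193 to 203) in fl/fl and 220 CPM (214 to 225) in cKO, a log2 ratio of 0.15. Atp6v1h (chr1:5070018-5162529) stood at 43.1 CPM (40.9 to 45.5) and 38.8 CPM (36.5 to 41.2). Its log2 ratio was -0.15, below 0 in 5 of the 8 clusters, and ran from -0.20 to -0.04 over 17 other settings.

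Read by group, the V-ATPase genes lay mostly to 1 side. All 4 V0 subunits were higher in cKO, with a median log2 ratio of 0.05, and 9 of the 10 V1 and accessory genes were, also with a median of 0.05, where 38.9% of all genes were higher and their median was -0.04. The highest V0 ratio was that of Atp6v0c at 0.07, and Atp6v1b2 was level at 108 CPM in both libraries. These ratios are small enough that Atp6v0b, Atp6v0e, Atp6v1a, Atp6v1b2, Atp6v1c1, Atp6v1e1, Atp6v1f and Atp6ap1 crossed 0 in at least 1 of 18 other settings. The medians stayed above 0 in all 18, between 0.01 and 0.08 for V0 and between 0.02 and 0.09 for V1 and accessory genes. Of the measured membrane proteins, Scarb2, Lamp1 and Lamp2 were higher and Cd68 and Npc1 lower. Lamp1, a heavily glycosylated coat protein of the lysosomal membrane, was at 604 and 645 CPM, Lamp2, its relative needed for chaperone-mediated autophagy, at 341 and 367 CPM, and the macrophage sialomucin Cd68 at 547 and 546 CPM.

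Of the 14 lumen proteins, 7 were higher and 7 lower in cKO, beside the 38.9% of all genes that were higher. Their median log2 ratio of -0.00, beside -0.04 for all genes, took the other sign in 5 of 18 settings. Above Grn, Neu1 and Npc2 no further lumen gene reached 1.1-fold, and Asah1, Ppt1, Gaa and Lgmn lay between 0.01 and 0.06. On the lower side were the glycosidases Hexa (717 CPM in fl/fl and 691 in cKO), Man2b1 (456 and 437), Gusb (627 and 606) and Glb1 (87.8 and 85.4), the peptidase Tpp1 (151 and 143), the acid lipase Lipa (80.7 and 77.6) and Psap. The lowest of these ratios was that of Tpp1 at -0.08 (-0.14 to -0.02). For 6 of these 7, all but Gusb, the direction turned with the fl/fl cells used, as given below for cells split by mt-Nd3 and Gm28438. Among the lumen genes on the higher side, this was also true of Lgmn and Ppt1.

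**Figure D2:**
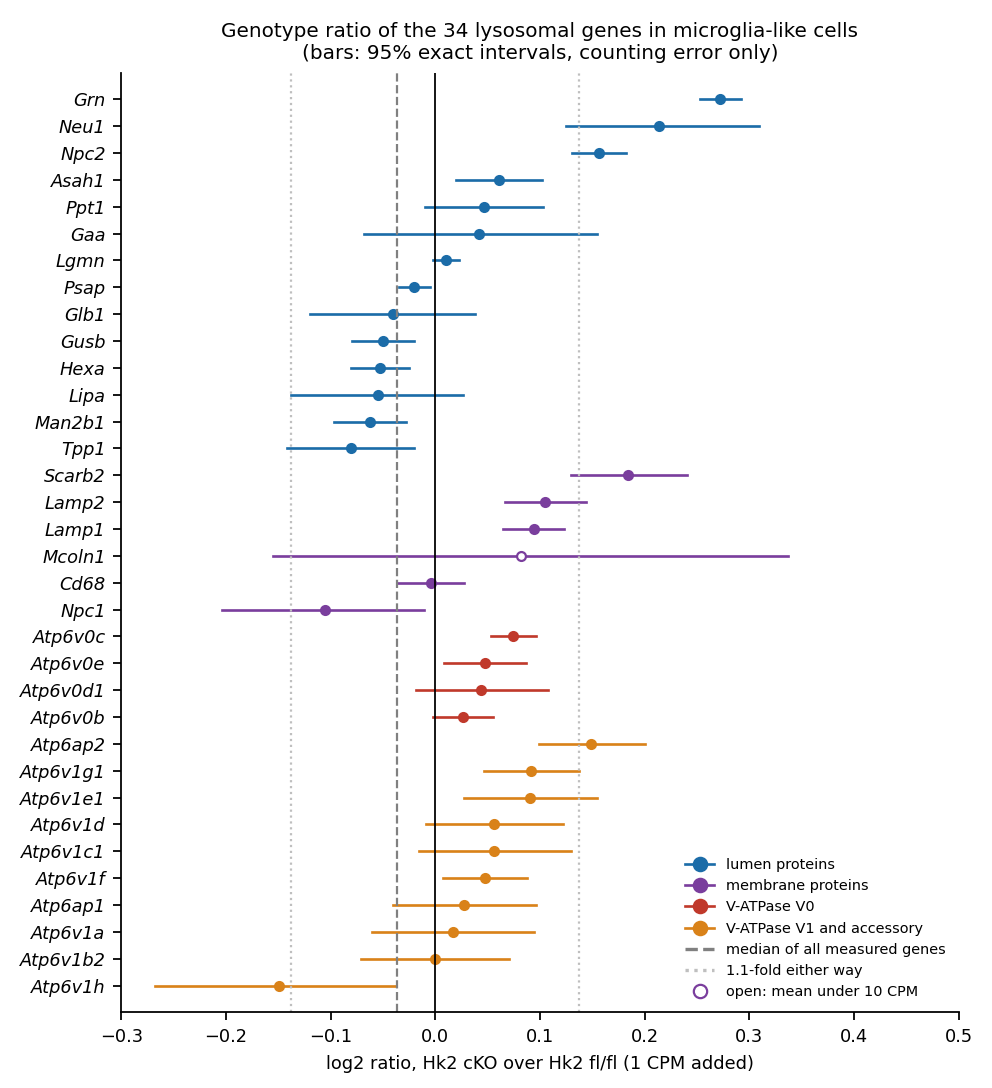
Log2 ratio of cKO over fl/fl CPM for each of the 34 genes in microglia-like cells, coloured by group, with 95% counting intervals, the median of all measured genes as a dashed line and 1.1-fold as dotted lines. Grn lies highest at 0.27 and Atp6v1h lowest at -0.15.

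Other genes of the lysosome were counted from lists chosen with earlier results of these data known, so their directions are descriptions, to be read beside the 38.9% of all genes that were higher in cKO and their median log2 ratio of -0.04. All 12 measured cathepsins and cystatins were higher in cKO, with a median log2 ratio of 0.15. Ctsl, a cysteine protease, had 654 CPM in fl/fl and 866 in cKO, Cst7, an inhibitor of such proteases, had 15.4 and 20.3, and Cst3, the most abundant gene of that list, had 10530 and 10590. Of 30 other hydrolases and partners 20 were higher, with a median of 0.04. The ribonuclease Rnaset2a (176 and 207 CPM) and the nuclease Dnase2a (94.97 and 106) had the highest ratios there, and the galactosidase Gla (35.3 and 28.8) and the thioesterase Ppt2 (63.4 and 55.7) the lowest. Of 25 other membrane and transport proteins 14 were higher, with a median of 0.01, from Slc38a9 (32.3 and 24.9 CPM), an arginine sensor, and Ctns (14.0 and 11.1), the cystine exporter, to Cd63 (194 and 238) and the nucleoside transporter Slc29a3 (106 and 141).

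Of 8 further V-ATPase subunits and assembly factors 6 were higher, with a median of 0.06. Atp6v0a1, 1 of the alternative a subunits of V0, stood at 62.0 CPM in fl/fl and 71.2 in cKO. Of 16 regulators of lysosomal genes 7 were higher, with a median of -0.03, and Lamtor4, a member of the Ragulator complex that anchors mTORC1, was the most abundant at 310 and 299 CPM. Tfeb stood at 21.0 and 19.0 CPM and Tfe3 at 110 and 107 CPM, and the interval of each ratio covered 0. Of 10 genes for delivery to the lysosome, such as the mannose 6-phosphate receptor M6pr at 184 and 198 CPM, 4 were higher, with a median of -0.00. The shares higher among the regulators and the delivery genes were thus near that of all genes.

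The fl/fl cells were not uniform in a further respect. Of the microglia-like fl/fl cells, 1188 had UMIs of the mitochondrial gene mt-Nd3 and none of Gm28438, a pseudogene annotated on chromosome 1, and 488 had Gm28438 and no mt-Nd3. In cKO these counts were 4 and 1695. This split had been noticed earlier in these data, and its source was not tested. Against fl/fl cells with Gm28438 alone, cKO cells with Gm28438 alone were higher in 27 of 33 genes (38.1% of all genes), with a median log2 ratio of 0.08. With the fl/fl mt-Nd3-alone cells as the base they were higher in 21 of 33 (49.0% of all genes), with a median of 0.03. Grn had log2 ratios of 0.37 and 0.25 in these comparisons, Scarb2 0.33 and 0.13, Npc2 0.29 and 0.11, Neu1 0.23 and 0.20 and Atp6ap2 0.08 and 0.18. Lamp1 had 0.32 and 0.03. Npc1 was level in the first comparison, at 0.00 (-0.17 to 0.18), and at -0.16 (-0.28 to -0.05) in the other. Hexa had 0.17 and -0.14, Man2b1 0.09 and -0.12, Psap 0.07 and -0.05, Glb1 0.03 and -0.12 and Tpp1 0.03 and -0.11, while Lipa had -0.18 and 0.03, so these 6 lumen genes lay on opposite sides of 0 in the pair of comparisons. So did Cd68, Lgmn, Ppt1, Atp6v0e (-0.07 and 0.11), Atp6v1b2, Atp6v1f and Atp6ap1. Of these, all but Cd68 were counted as higher in cKO over all microglia-like cells. The share of all genes that changed side was not counted. The comparisons share the same cKO cells. Within the fl/fl library itself, cells with Gm28438 alone were higher than cells with mt-Nd3 alone in 10 of 33 genes (58.7% of all genes), with Lamp1 at 511 and 625 CPM and Grn at 1180 and 1284 CPM. For Lamp1 the log2 ratio inside the fl/fl library was -0.29 (-0.35 to -0.23).

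More of the genes differed by 1.1-fold between cell cycle states of microglia-like cells than between genotypes, and the same was true of all measured genes. Between genotypes 11.6% of all genes were at least 1.1-fold higher in cKO and 20% lower, and the shares for cycle states are given below. To set the levels beside the cell cycle, each cell was thinned to 5000 UMIs and called G2/M-positive when it had UMIs of at least 3 of 12 genes of the G2 and mitotic phases. Of the cells deep enough to thin, 786 of 2224 in fl/fl (35.3%) and 508 of 1816 in cKO (28.0%) were G2/M-positive, and 1101 and 984 were positive for neither G2/M nor S genes. At the threshold of 3 genes lay 185 and 94 cells, and 310 and 169 had 2 genes. The comparison is within each library and uses all UMIs of these cells.

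In G2/M-positive cells, 23 of the 33 genes were at least 1.1-fold lower than in cells with neither signature in both libraries, against 28.3% of all genes, and 0 were at least 1.1-fold higher in both, against 30.7%. The median log2 ratio was -0.31 in fl/fl and -0.35 in cKO, and over all genes 0.02 and -0.03. Man2b1, the lysosomal alpha-mannosidase (chr8:85083270-85098282), was at 555 CPM in cells with neither signature and 363 in G2/M-positive cells of fl/fl, and at 556 and 316 in cKO, log2 ratios of -0.61 (-0.67 to -0.56) and -0.81 (-0.88 to -0.75). Tpp1, a peptidase whose loss causes a neuronal ceroid lipofuscinosis, was at 181 and 124 CPM in fl/fl and at 172 and 107 in cKO. For both genes the interval of the ratio lay below 0 in both libraries.

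Membrane proteins and progranulin were lower as well. Lamp1 was at 710 and 517 CPM in fl/fl and at 796 and 496 in cKO, and Lamp2 at 406 and 283 and at 446 and 287. Grn was at 1498 and 1090 CPM in fl/fl and at 1881 and 1211 in cKO. Lgmn differed less, with 3616 and 3109 CPM in fl/fl and 3656 and 3037 in cKO, log2 ratios of -0.22 and -0.27.

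Not every lysosomal gene was lower in these cells. Gusb, the beta-glucuronidase, stood at 622 and 621 CPM in fl/fl and at 605 and 588 in cKO. Of the V-ATPase genes, Atp6v0e, Atp6v0d1, Atp6v1c1, Atp6v1g1, Atp6ap1 and Atp6ap2 lay within 1.1-fold in both libraries. Atp6v1g1 was at 258 and 254 CPM in fl/fl and at 266 and 284 in cKO. The rotor subunit Atp6v0c stood apart from these at 1303 and 986 CPM in fl/fl and 1361 and 984 in cKO. Cells positive for S genes alone lay between, with 18 of 33 genes at least 1.1-fold lower in both libraries (19.2% of all genes) and 0 higher (29.7%).

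**Figure D3:**
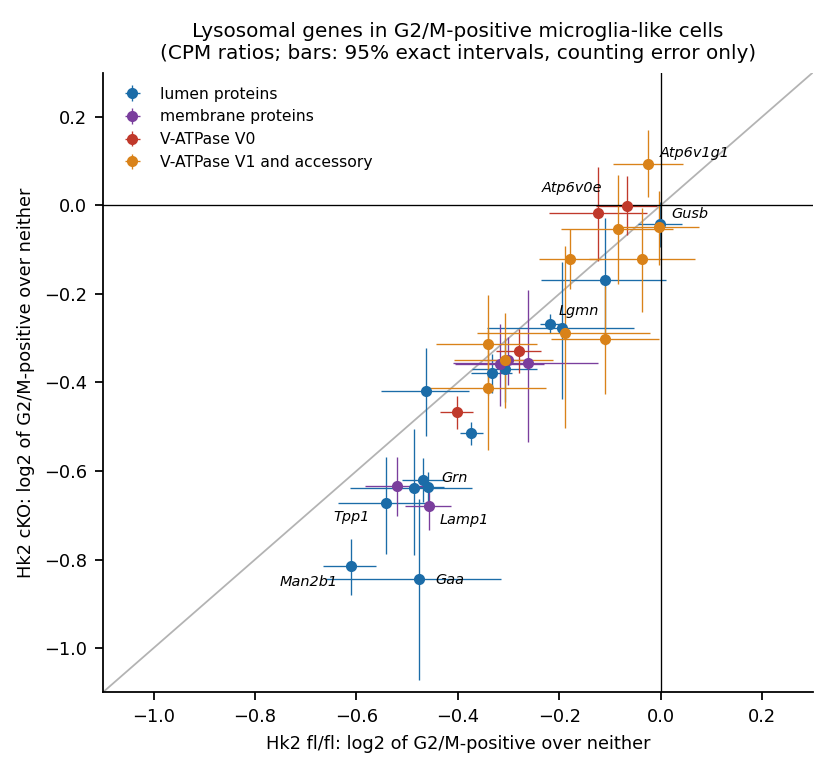
Log2 ratio of CPM in G2/M-positive over neither G2/M- nor S-positive microglia-like cells, fl/fl on the horizontal and cKO on the vertical axis, 1 point per measured gene with 95% counting intervals, and the line of equal ratios in grey. Man2b1 lies at -0.61 and -0.81, while Gusb lies at -0.00 and -0.04.

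A share of UMIs is not an amount per cell. G2/M-positive cells were deeper, with medians of 13390 and 14800 UMIs against 9360 and 11650 in cells with neither signature. Counted per cell, the 34 genes had 246 UMIs in G2/M-positive and 210 in other fl/fl cells, and 248 and 241 in cKO. With each cell thinned to 5000 UMIs the order was the opposite, 72.0 and 91.7 in fl/fl and 69.6 and 94.7 in cKO. The lower share therefore stood beside a per-cell UMI count that was not lower, and how far depth, cell size or doublets entered it was not tested.

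The 34 genes together stood at 17770 CPM in fl/fl and 18610 in cKO in cells with neither signature, and at 14300 and 14120 in G2/M-positive cells. The sum was higher in cKO in the former and lower in the latter, and that difference was not tested. Grn in cells with neither signature had a log2 ratio of cKO over fl/fl of 0.33. Among cells with neither signature, 25 of 33 genes were higher in cKO (45.4% of all genes), and among G2/M-positive cells 15 of 33 were (39.8%). Of the genes with a promoter at hand and a measured level, the 12 with an E-box or M-box had a median G2/M log2 ratio of -0.43 in fl/fl and -0.44 in cKO, and the 15 with neither motif -0.31 and -0.35. Their medians for cKO over fl/fl were 0.04 and 0.05.

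The 8 microglia-like clusters differed in these genes too, and they were filled unevenly: the clusters with most cells were 3 and 1 in fl/fl (594 and 575 cells) and 2 and 3 in cKO (497 and 365). Cluster 9, led by Top2a, Hist1h1b and Mki67 of dividing cells, had 22 of 33 genes at least 1.1-fold below the other microglia-like cells in both libraries, against 19.1% of all genes, and 0 above (31.6%). In cluster 1, led by Ccnb2, Cenpa and mt-Nd3, 16 genes were below (27.3%) and 0 above (15.4%). Clusters 3, 7 and 8 were on the other side. Cluster 3, led by Otud1, Klf2 and Klf6, had 24 genes above (44.5%), cluster 7, led by Rcan1, Ccl7 and Sdc4, had 20 above (17.9%) and 2 below (36.8%), and cluster 8, led by Atcayos and Dlg4, had 15 above (21.0%). In cluster 2, led by Il12b and the interferon-induced Ifit3, Rsad2 and Isg15, 1 gene was above (7.13%) and 3 were below (22.6%).

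The sum of the 34 genes ran from 11990 CPM in cluster 0 to 18750 in cluster 3 in fl/fl and from 12520 in cluster 0 to 19550 in cluster 8 in cKO. Man2b1 ran from 286 CPM in cluster 0 to 655 in cluster 8 in fl/fl and from 241 to 718 in cKO. Grn ran from 772 CPM in cluster 0 to 1623 in cluster 7 in fl/fl and from 846 in cluster 0 to 2104 in cluster 8 in cKO. Lgmn varied less, from 2675 CPM in cluster 0 to 3944 in cluster 3 in fl/fl, and Gusb had its lowest level, 518 and 511 CPM, in cluster 7. Over the 33 genes, the highest cluster exceeded the lowest by a median of 1.74-fold in fl/fl and 1.82-fold in cKO. Over all measured genes these medians were 2.18-fold and 2.33-fold. The sets were not matched for level, and counting error widens this fold most in low genes.

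The 3 clusters with most genes above the others carried the microglial markers at 37620 to 39850 CPM in fl/fl and 39350 to 44480 in cKO, and G2/M genes at 224 to 271 and 93.7 to 166 CPM. Cluster 9 carried the microglial markers at 27080 and 29010 CPM and G2/M genes at 3415 and 3821. Immediate early genes, which tissue dissociation is known to induce, stood at 4862 to 6436 CPM in clusters 3, 7 and 8 of fl/fl, at 4424 in cluster 9, at 3257 and 3439 in clusters 1 and 2, and at 277 in cluster 0 and 783 in cluster 6. In this sum clusters 3, 8 and 7 of fl/fl stood highest, cluster 9 came next, and clusters 6 and 0 stood lowest. The part of the immediate early genes in the levels of the 34 genes was not tested.

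**Figure D4:**
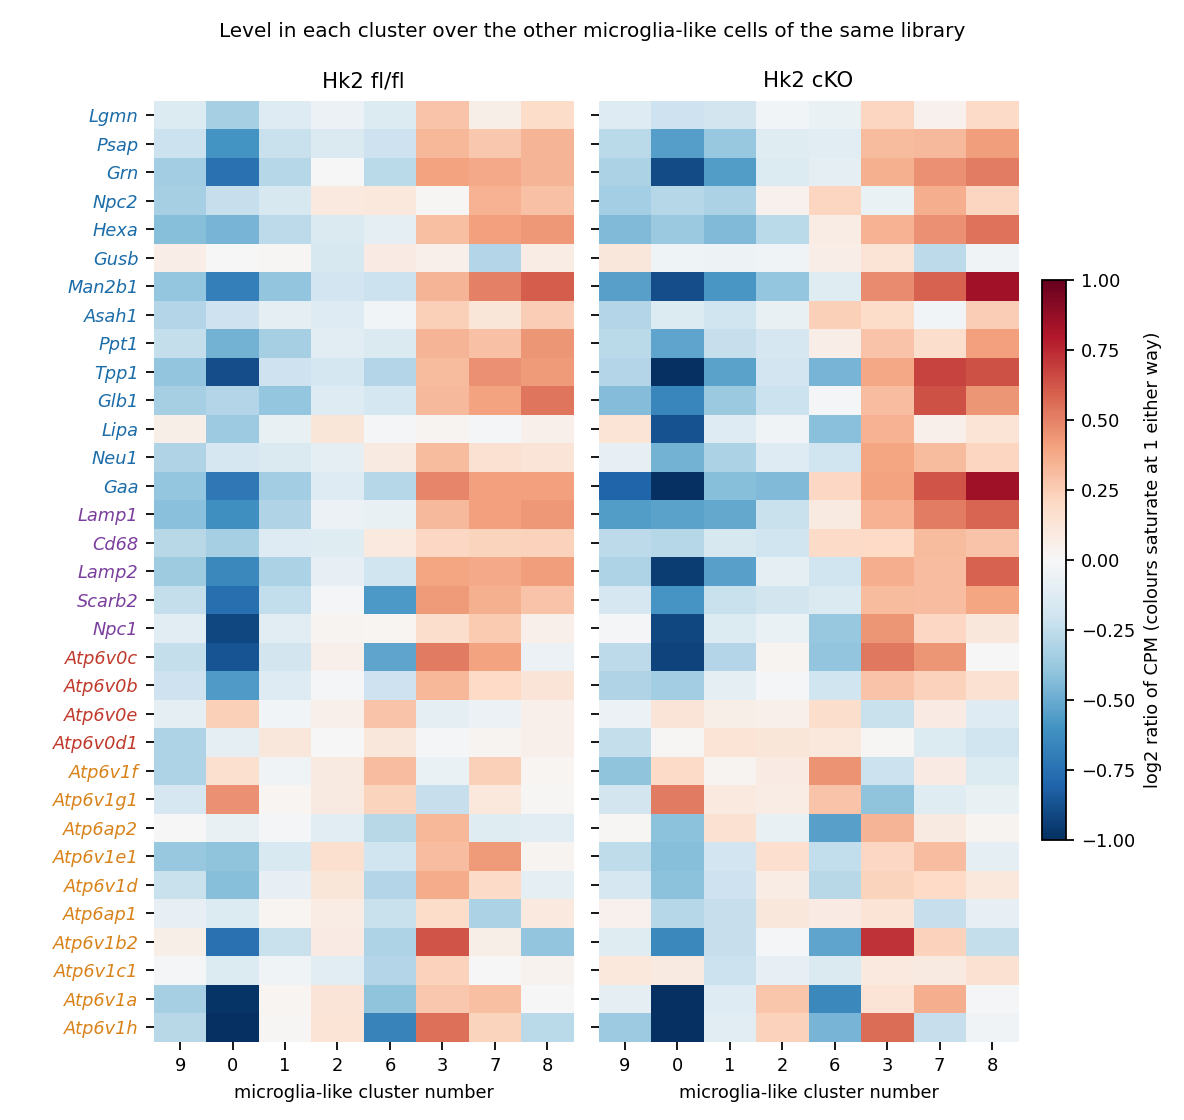
Log2 ratio of CPM in each microglia-like cluster over the other microglia-like cells of the same library, fl/fl on the left and cKO on the right, red for higher and blue for lower, for the 33 measured genes in rows coloured by group. Clusters 9, 0 and 1 are mostly blue and clusters 3, 7 and 8 mostly red in both libraries, while Atp6v1g1 and Atp6v1f are red in clusters 0 and 6.

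V-ATPase subunits parted company in clusters 0 and 6. In cluster 0, led by Pbk, Cdc20 and Cdk1, the ATP-binding subunit Atp6v1b2 stood at 65.0 CPM in fl/fl and 70.1 in cKO, below its 108 in all microglia-like cells of either library. Atp6v1g1 stood in the same cells at 346 and 381 CPM, above its 254 and 271. In cluster 0, 24 of 33 genes were at least 1.1-fold below the other cells in both libraries (49.2% of all genes) and 2, Atp6v1f and Atp6v1g1, above (26.2%). In cluster 6, led by Igkc, Igha and Jchain, 12 were below (46.7%) and 3, Atp6v0e, Atp6v1f and Atp6v1g1, above (17.1%).

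These clusters also had fewer UMIs per cell, 0.736 and 0.577 of the library's median in cluster 6 and 0.809 and 0.706 in cluster 0, as did cluster 3 with 0.747 and 0.847. Transcript length went with the level in all 3, though not in these clusters alone. Atp6v1f, Atp6v0e and Atp6v1g1 have median annotated transcript lengths of 754, 772 and 1135 bases, against 2825 for Atp6v1b2 and 4065 for Atp6v1a. Short subunits did not all go 1 way. Atp6v0b and Atp6v0c have lengths of 967.5 and 989.5 bases and were lower in both clusters. In cluster 0 the log2 ratios over other cells were -0.56 and -0.35 for Atp6v0b and -0.86 and -0.92 for Atp6v0c, in fl/fl and cKO. In cluster 6 those of Atp6v0c were -0.53 and -0.39. Over all 7813 genes the Spearman correlation of that length with the log2 ratio of cluster 0 over other cells was -0.47 in fl/fl and -0.48 in cKO, and in cluster 6 it was -0.46 and -0.52. In cluster 3 it was 0.43 and 0.48. In cluster 1, which was deeper than the library's median (1.45 and 1.32 of it), it was -0.29 and -0.33. In cluster 8 it was 0.07 and 0.28. Genes within a library share its cells and depth, so these correlations are descriptions. The part of length in the subunit levels was not tested.

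Within microglia-like cells at 5000 UMIs, the genes varied from cell to cell somewhat more than counting alone gives. The Fano factor is the variance of UMIs over their mean, which counting alone puts at 1. It had a median of 1.13 in fl/fl and 1.17 in cKO for the 34 genes, Mcoln1 included, and of 1.06 and 1.08 for all measured genes. The 34 genes and all measured genes were not matched for level. The abundant genes had the highest values, Psap 2.82 and 3.09, Lgmn 2.62 and 2.88, and Grn 2.14 and 2.88. Neu1, a low gene, had 0.99 and 0.98.

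Other cell classes in the sort gave a wider contrast, though on few cells. The osteoclast-like cluster, 17 fl/fl and 21 cKO cells, was named from 6 markers that include Ctsk, Acp5 and Atp6v0d2, the last a V0 subunit outside the 34 genes. Osteoclasts are bone-resorbing cells known to place V-ATPase in their outer membrane to acidify the bone surface. In these cells 12 of the 14 V-ATPase genes were at least 25% above microglia-like cells in both libraries, part of 14 of the 33 genes that were (20.4% of all genes). Atp6v1g1 stood at 1334 CPM in fl/fl and 1339 in cKO, against 254 and 271 in microglia-like cells. Atp6v0e stood at 854 and 1179 CPM against 341 and 352, Atp6v1b2 at 356 and 402 against 108 in either library, and Atp6v0c at 1842 and 2591 against 1136 and 1196. The exceptions were Atp6v0d1, at 133 and 156 CPM against 133 and 137, and Atp6ap1, at 101 and 115 against 114 and 116.

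Hydrolases and membrane proteins did not go along. Of the 20 lumen and membrane genes, 10 were at least 25% higher in microglia-like than in osteoclast-like cells of both libraries, where 24.9% of all genes were, and Npc2 and Glb1 were that much higher in osteoclast-like cells. Lgmn stood at 1375 and 777 CPM against 3350 and 3375, Lamp1 at 347 and 276 against 604 and 645, and Lamp2 at 152 and 165 against 341 and 367. The sum of the 4 V0 genes was 3869 and 5198 CPM against 2252 and 2339, and that of the lumen genes 7284 and 5542 against 10470 and 10760. The microglial markers summed to 13430 and 7342 CPM in the osteoclast-like cells and none was at 0. Their median depth was 24080 and 21690 UMIs. How far microglial RNA or doublets entered these values was not tested.

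In neutrophil-like cells (82 fl/fl and 89 cKO cells), 24 of 33 genes were lower, the level in microglia-like cells being at least 25% above theirs in both libraries, as for 55.2% of all genes. In 1 gene the reverse held (10.1%). That gene was Atp6v1e1, the peripheral stalk subunit of V1, at 226 and 248 CPM against 130 and 139. Neu1 was near level, at 62.0 and 72.5 CPM against 58.8 and 68.4. Microglial markers summed to 14940 and 13090 CPM in these cells.

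Monocyte-like cells (79 and 34 cells) had high Lamp1, at 825 and 826 CPM, and Npc2, at 1013 and 1155. Psap was close to its microglial level at 2416 and 2738 CPM. Lgmn was at 1197 CPM in fl/fl and 177 in cKO, and the microglial markers summed to 12560 CPM in fl/fl and 1525 in cKO, with 2 of the 16 at 0 in the latter. By the same mark of 25% in both libraries, 10 of 33 genes were higher in microglia-like cells (26.3% of all genes) and 5 in monocyte-like cells (17.0%). Against endothelial-like cells (53 and 92 cells), 12 of 34 genes were higher in microglia-like cells (10.6%) and Lipa alone in endothelial-like cells (14.4%).

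**Figure D5:**
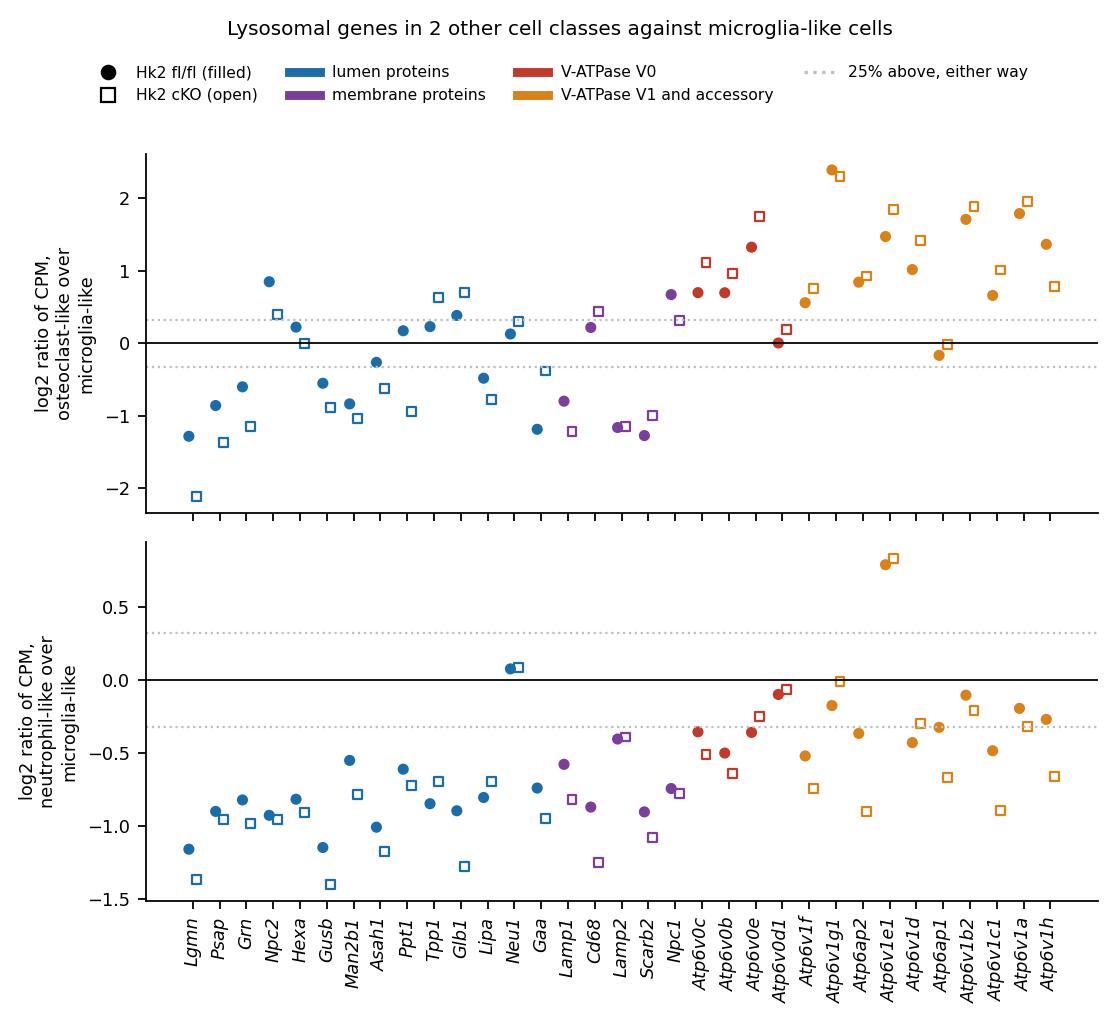
Log2 ratio of CPM in osteoclast-like cells (top) and neutrophil-like cells (bottom) over microglia-like cells of the same library, for the 33 measured genes coloured by group, with filled circles for fl/fl, open squares for cKO and dotted lines where one level is 25% above the other. In osteoclast-like cells 12 of 14 V-ATPase genes lie above the upper dotted line in both libraries, and Lgmn lies among the lowest points.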

How the data were processed

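The deposited values are raw UMI counts for each gene in each barcode, made by the authors from 10x 3′ v3 libraries with bcl2fastq and Cell Ranger 3.1.0 on GRCm38, per the submitters' processing notes. No source used here names the annotation, but all 55450 identifiers and symbols match GENCODE M21, which gave coordinates. Barcodes were kept that had 500 genes or more and no more than 10% mitochondrial UMIs. The doublet caller scrublet marked 2 and 1 cells and so did not work, and doublets largely remain. Cells were clustered in scanpy 1.11.5 (2000 variable genes without lysosomal genes, 30 components, 15 neighbours, Leiden resolution 0.8). A cluster took another class's name with at least 3 of its markers in 25% of cells at 4-fold, provided no different class had as many such markers or as many among the 10 leading genes. Otherwise it was microglia-like when no class reached 3, the 16 microglial markers were detected in 80% of cells on average, and no class had more markers among the 10 leading genes than microglia. Shallow clusters without own markers there stayed unnamed. Counts were summed per library and divided by the total to CPM, and ratios used 1 CPM added, which understates differences of low genes. Genes averaging at least 10 CPM were measured. No test was run, since each genotype is 1 library, and cells are not replicates. Samples were grouped by the genotype label. TMM factors came from edgeR 4.0.16. The ratio intervals were tested on simulated Poisson counts only, which is the model they assume. That test says nothing of spread between cells or libraries. All 34 genes are reported, with Hk2, up to 2 of the highest and 2 of the lowest of each further list and its most abundant gene, except that 1 gene is not reported here; Tfeb, Tfe3 and M6pr were named after their values were seen. The genes, lists, motifs and cluster rules were chosen with earlier results of these data known. Promoters are from RefSeq (GRCm38.p6), and the 6 genes without one there are Atp6v1b2, Atp6v1g1, Atp6v1h, Atp6v1c1, Asah1 and Npc1.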

Additional observations from a re-analysis of the deposited data

Results flagged for a closer look

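In 4 genes the genotype ratio took opposite signs in a pair of microglia-like clusters with counting intervals clear of 0 on both sides. Each ratio was also at least 1.1-fold. The share of all measured genes that meet the same rule was not counted, so these 4 are not set apart from other genes. With 1 library per genotype the difference itself was not tested, and these pairs were picked from all pairs of 8 clusters. Lamp1 stood at 577 CPM in fl/fl and 684 in cKO in cluster 6, and at 522 and 467 in cluster 1, so that the log2 ratios (0.24 and -0.16) lay 0.40 apart. Lamp2 stood at 438 and 522 CPM in cluster 8 and at 292 and 260 in cluster 1, log2 ratios 0.42 apart. Lipa, the acid lipase, stood at 82.1 and 95.4 CPM in cluster 3 and at 80.1 and 59.2 in cluster 6, 0.64 apart. Atp6ap1, an accessory protein of the V-ATPase, stood at 98.2 and 122 CPM in cluster 6 and at 115 and 100 in cluster 1, 0.51 apart. Of the 4 pairs 3 involve cluster 1, which held 575 fl/fl and 165 cKO cells. Of these, 327 fl/fl cells had mt-Nd3 alone and 101 Gm28438 alone, against 0 and 149 in cKO, and the part of this split in the cluster 1 ratios was not tested.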

How the results depend on the processing

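Over 18 alternatives in scaling, filters, clustering, depth and choice of cells, the number of genes higher in cKO ran from 19 (means per cell) to 27 and the median log2 ratio from 0.01 to 0.08, above 0 throughout. The share of all genes higher in cKO ran from 35.9% to 49.99% over these 18, and the highest value was fixed by the scaling, as given below. The number at least 1.1-fold higher, 5 as reported, was 2 with cells thinned to 5000 UMIs, 10 with Gm28438 alone in both libraries and 3 with cKO Gm28438-alone cells against fl/fl mt-Nd3-alone cells; the cause was not tested. The number at least 1.1-fold lower, 1 as reported (Atp6v1h), ran from 0 to 2 and was 0 in 8 of the 18. Median-of-ratios scaling sets the median log2 ratio of all measured genes to 0. Its share of all genes higher, 49.99% against 38.9% as reported, was thus fixed in advance. It placed 25 of the 33 higher, against 23 as reported. Genes lower in G2/M-positive cells numbered 21 to 26 over 16 alternatives, 2 of them (2 or 5 of 12 cycle genes asked for) added after seeing the data. Osteoclast-like counts over 9 alternatives were 11 to 12 V-ATPase genes higher and 9 to 11 others lower, and 22 to 27 genes were lower in neutrophil-like cells. For the 1.1-fold, G2/M and cell class counts, the share of all genes was not counted in each alternative. No paired analysis was possible because each genotype has 1 library, and for the same reason none could be left out. Depth limits Mcoln1 (286 and 266 UMIs) and classes of few cells.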
